A study of Homo sapiens with 12 samples.

Results

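The transcripts of 46 DNA repair and checkpoint genes were examined across 12 RNA-seq libraries of HEK293T cells, a line of human embryonic kidney origin that carries the large T antigen of SV40. The genes were chosen by name, and their Ensembl identifiers were matched to symbols, so that the 46 genes are members of a table of 60660 identifiers, of which 12830 were coding genes expressed highly enough to be tested. All 46 were tested. The cells were labelled wild type and transfected with a control siRNA (siCTL) or with siRNA against CARM1 (siCARM1), an arginine methyltransferase, or against CHD4, HDAC2, GATAD2A or KDM1A (siCHD4, siHDAC2, siGATAD2A and siKDM1A), which belong to or associate with the NuRD complex. NuRD joins a nucleosome remodeler to histone deacetylases, and the study asked how far its subunits and CARM1 act on the same genes. Each of the 6 groups held 2 libraries. The methods give 1 siRNA sequence for each NuRD gene, so the loss of a target and any other effect of the same siRNA cannot be told apart. The labels do not say whether the 2 libraries of a group came from separate cultures. The p-values thus rest on the spread between libraries of a group, pooled over the 6 groups, which may be technical.

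DNA breaks and stalled replication forks are sensed by the kinases ATM and ATR, which pass the signal to CHEK2 and CHEK1 and so hold the cell cycle while repair goes on. Broken ends are either joined directly or resected and copied from the sister chromatid by homologous recombination, crosslinks between strands are removed with the help of the Fanconi anaemia proteins, and damaged or mispaired bases are cut out by the excision and mismatch pathways. Many of these genes are transcribed mainly in late G1 and S phase, under E2F factors, and large T antigen binds both p53 and the retinoblastoma proteins, so both controls are altered in HEK293T cells.

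Counts on genes, taken from the strand that the directional kit sequences, summed to between 19308315 and 28648657 per library. The mRNA of the targeted gene was lower in its own knockdown in each case, with log2 fold changes of −2.37 for CARM1, −0.54 for CHD4, −2.35 for HDAC2, −1.74 for GATAD2A and −2.59 for KDM1A. CHD4 mRNA was thus reduced least. It was also called lower in siCARM1 (log2 fold change −0.32), and GATAD2A was called higher in siCHD4 (log2 fold change 1.09). The labelled cells expressed KRT8, KRT18, VIM, CDH2 and LIN28B, while PAX2 and NEFM were near 0. The leukocyte gene PTPRC had at most 0.0221 CPM (counts scaled to library size) in a group mean and CD3E at most 0.433 CPM. The summed level of the 7 markers moved with the knockdowns: it was 2314 and 2315 CPM in siCTL, 3259 and 3256 CPM in siCHD4 and 2003 and 1975 CPM in siGATAD2A, and 2447 to 3124 CPM in the other 6 libraries. The 6 genes of other cell types summed to 130.2 and 130.1 CPM in siCTL, 97.6 and 94.6 CPM in siCHD4, 88.2 and 84.5 CPM in siGATAD2A and 103 to 155 CPM in the others. The part of these shifts in the results on repair genes was not tested. COL1A1 was expressed, with group means of 80.4 to 123 CPM. It was not the only such gene, since the 6 genes summed to 155 and 138 CPM in siKDM1A. The others of that list, COL3A1, ALB and DES, are not given one by one.

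The 46 genes spanned a wide range of levels per exonic length. Their FPKM, computed here as counts scaled to exonic length and to the total count on genes, had the highest mean over the 12 libraries for XRCC6 (151, range 140.1 to 160.7), which with XRCC5 forms the Ku ring that binds broken ends. XRCC5 (60.9, range 53.7 to 68.5) and DDB1 (59.5, range 53.3 to 70.2) followed and overlapped in range. The kinase subunit PRKDC (47.6) and the poly(ADP-ribose) polymerase PARP1 (30.0) came next. At the lower end were the branch-migrating helicase FANCM (1.81), FANCB (0.909) and RAD50 (0.733), and the ranges of FANCB and RAD50 overlapped. The order depends on the annotated length, which is the union of all exons of a gene. That union holds 15516 bases for DDB1, 5463 for XRCC5, 3244 for XRCC6, 19054 for FANCM and 13297 for FANCB. In counts per library, DDB1 (15961 to 27541) lay above XRCC6 (9637 to 14498). RAD50 is not measured in full, since 76.9% of its exonic bases are shared on the same strand with another annotated gene and read pairs on more than 1 gene are left out of the counts. Its counts were 141 to 273 per library. ATRIP shares 26.7% of its exonic bases with TREX1 in the same way. CHEK2, PMS2 and FANCD2 have near-identical pseudogene copies, and pairs that mapped to several places were not counted, so their levels are uncertain in the parts that the copies share.

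**Figure D1:**
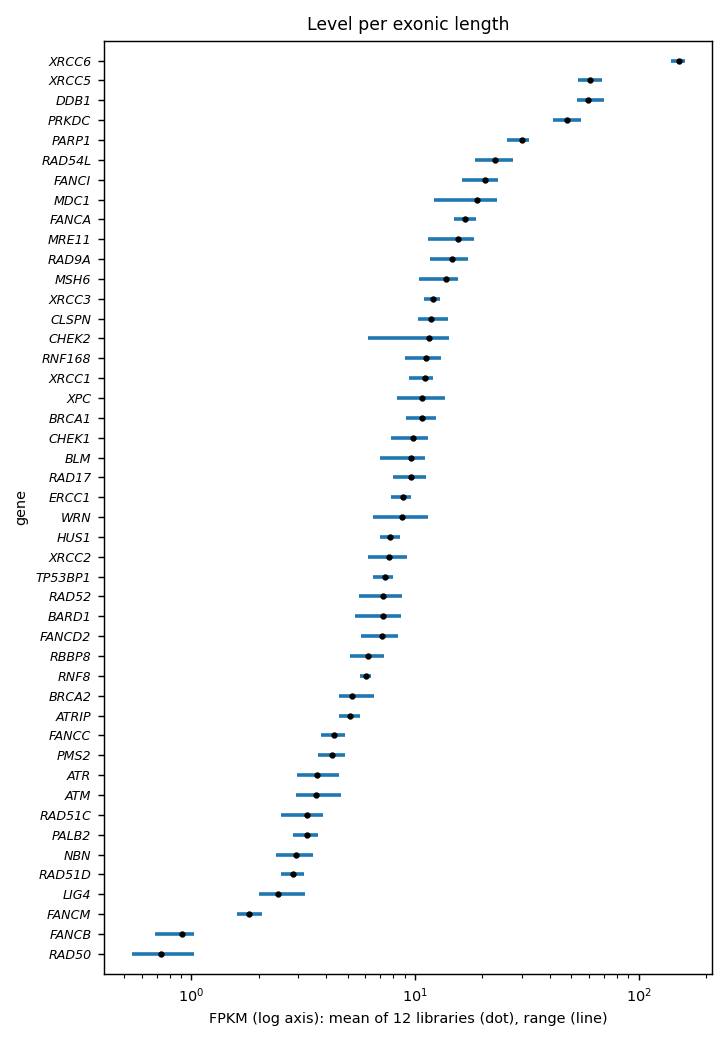
FPKM of each of the 46 genes on a log axis, with the mean of the 12 libraries as a dot and the lowest to highest library as a line. XRCC6 lies at 151 FPKM and RAD50 at 0.733 FPKM.

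Promoter sequences were compared because the genes are commonly grouped as E2F targets. Of the 46 genes, 40 had an entry among the RefSeq promoter windows (GRCh38.p14, 250 bases before to 50 after the start), and NBN, FANCI, XRCC5, WRN, HUS1 and PRKDC had none. E2F site letters (TTTCCCG as well as TTTGGCG, and further TTTCGCG as well as TTTGCCG, on either strand) were found in 14 of the 40 windows (35.0%), beside 13.3% of the windows of 10395 tested genes and 8.69% of all 27305 windows. The letters CCAAT were in 20 of 40 windows, beside 36.9% of those of tested genes, and TTTGAA in 4 of 40 (10.0%, beside 9.38%). These letters are short and overlap in GC-rich sequence, and a match is a description of the window. Among the genes with a window, E2F letters stood in 2 of 10 that were called lower in siCHD4, 2 of 5 called higher and 10 of 25 not called. In siGATAD2A they stood in 3 of 6 lower, 1 of 5 higher and 10 of 29 not called. In siCARM1 they stood in 1 of 3 lower and 1 of 6 higher, and in siKDM1A in 0 of 1 lower and 3 of 4 higher. In siHDAC2 they stood in 3 of 6 higher. On these small counts, the same letters were found in genes that moved either way and in genes that did not pass the test.

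The matches of genes called lower in siCHD4 (MSH6, RNF168), higher in siCHD4 (CLSPN, LIG4) and higher in other knockdowns (FANCD2, XRCC2) are shown as examples of these 3 classes. Each run is 25 bases of RefSeq promoter sequence, 5′ to 3′ on the strand of the gene, placed on GRCh37 by exact match, and the capitals mark the E2F letters.
MSH6: ccccccagaTTTCCCGccagcagga
RNF168: aagtgcgatTTTGGCGggcggttgt
CLSPN: ctggctgggCGGGAAAgcaagaaca
LIG4: gggtgtcgcCGGCAAAtgcccccgc
FANCD2: cgggcctggCGGGAAAgtcgaaaac
XRCC2: cgttggtggCGGGAAAgttgagtct
The MSH6 run lies at chr2:48010278-48010302 on the plus strand and that of FANCD2 at chr3:10068111-10068135 on the plus strand. Those of RNF168 (chr3:196230652-196230676), CLSPN (chr1:36235568-36235592), LIG4 (chr13:108870799-108870823) and XRCC2 (chr7:152373189-152373213) lie on the minus strand.

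The 5 knockdowns were each set against siCTL with the quasi-likelihood test of edgeR, fitted on all 12830 genes. A call needed a fold of 1.2 or more, and an adjusted p (Benjamini-Hochberg) no higher than 0.05. In siCHD4, 11 of the 46 genes were called lower (all genes tested 24.8%) and 6 higher (all genes 24.0%). In siGATAD2A, 6 were lower (all genes 18.2%) and 6 higher (all genes 15.7%). In siCARM1, 3 were lower (all genes 14.4%) and 8 higher (all genes 14.9%). In siKDM1A, 1 was lower (all genes 11.4%) and 5 were higher (all genes 14.2%). In siHDAC2, none was called lower by edgeR or by DESeq2 (all genes by edgeR 8.94%), and 7 were called higher (all genes 10.6%). At an unadjusted p under 0.05 by edgeR, 2 were lower in siHDAC2, and the share of all genes at that threshold was not counted. Without either siCTL replicate 2 or siHDAC2 replicate 2, 1 gene was called lower in siHDAC2, the clamp loader RAD17.

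After a correction for GC content the counts lower and higher were 10 and 9 in siCHD4, 2 and 5 in siKDM1A and 6 and 4 in siGATAD2A. In siGATAD2A they were 7 and 4 on counts taken without regard to strand (13189 genes tested) and 8 and 4 with a filter that kept genes of every biotype (20156 genes tested). The shares of all genes called under these settings were not counted, so these moves cannot be set beside those of all genes.

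As shares of the 46 genes, the calls before these changes of setting are 23.9% lower and 13.0% higher in siCHD4 and 13.0% and 13.0% in siGATAD2A. In siCARM1 they are 6.52% and 17.4% and in siKDM1A 2.17% and 10.9%, and in siHDAC2 15.2% were higher. The median log2 fold change of the 46 genes was highest in siCARM1 (0.06) and lowest in siCHD4 (−0.05), with 0.02 in both siGATAD2A and siHDAC2 and 0.01 for siKDM1A, and the median of all genes tested lay within 0.01 of 0 in each. Over the 5 knockdowns, 31 of the 46 genes were called at least once, beside 72.9% of all genes tested. Of the 46, 5 reached a fold of 1.5 in some knockdown (all genes 31.6%) and 1 a fold of 2 (all genes 12.4%). No repair gene had calls in both directions (all genes 9.45%). The 5 comparisons use the same siCTL libraries, so their values are given side by side only.

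**Figure D2:**
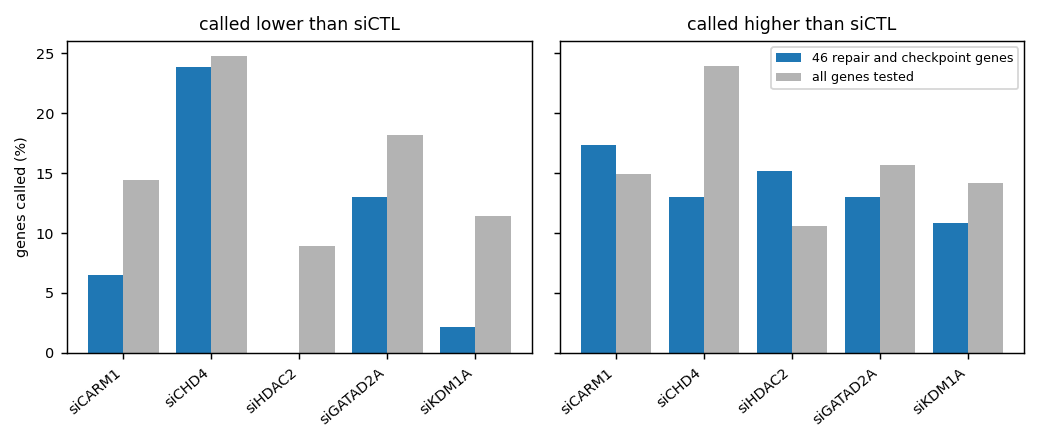
Percent of genes called lower (left) and higher (right) than siCTL in each knockdown, for the 46 repair and checkpoint genes (blue) and for all 12830 genes tested (grey). The share of repair genes called lower is below that of all genes in each knockdown, by the narrowest margin in siCHD4 (23.9% beside 24.8%).

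When the 6 groups were tested together, 42 of the 46 genes passed at an adjusted p of 0.05 or less (all genes 91.0%). The other 4 were the ATR partner ATRIP, the clamp subunit HUS1, the recombination protein XRCC3 and the ubiquitin ligase RNF8. Pairs of knockdowns were also compared directly, without siCTL. Here 36 of the 46 genes were called in at least 1 of the 10 pairs (all genes 80.0%). Of the pairs with siCHD4, that with siHDAC2 had 22 of the 46 genes called (all genes 48.8%), that with siCARM1 21 (all genes 47.7%), that with siKDM1A 15 (all genes 47.7%) and that with siGATAD2A 14 (all genes 44.7%). Among the other pairs, siGATAD2A differed from siCARM1 in 16 genes (all genes 33.8%), from siKDM1A in 10 (all genes 32.0%) and from siHDAC2 in 8 (all genes 29.4%). siKDM1A differed from siCARM1 in 4 (all genes 20.9%) and from siHDAC2 in 3 (all genes 14.3%), and siHDAC2 from siCARM1 in 3 (all genes 19.3%).

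**Figure D3:**
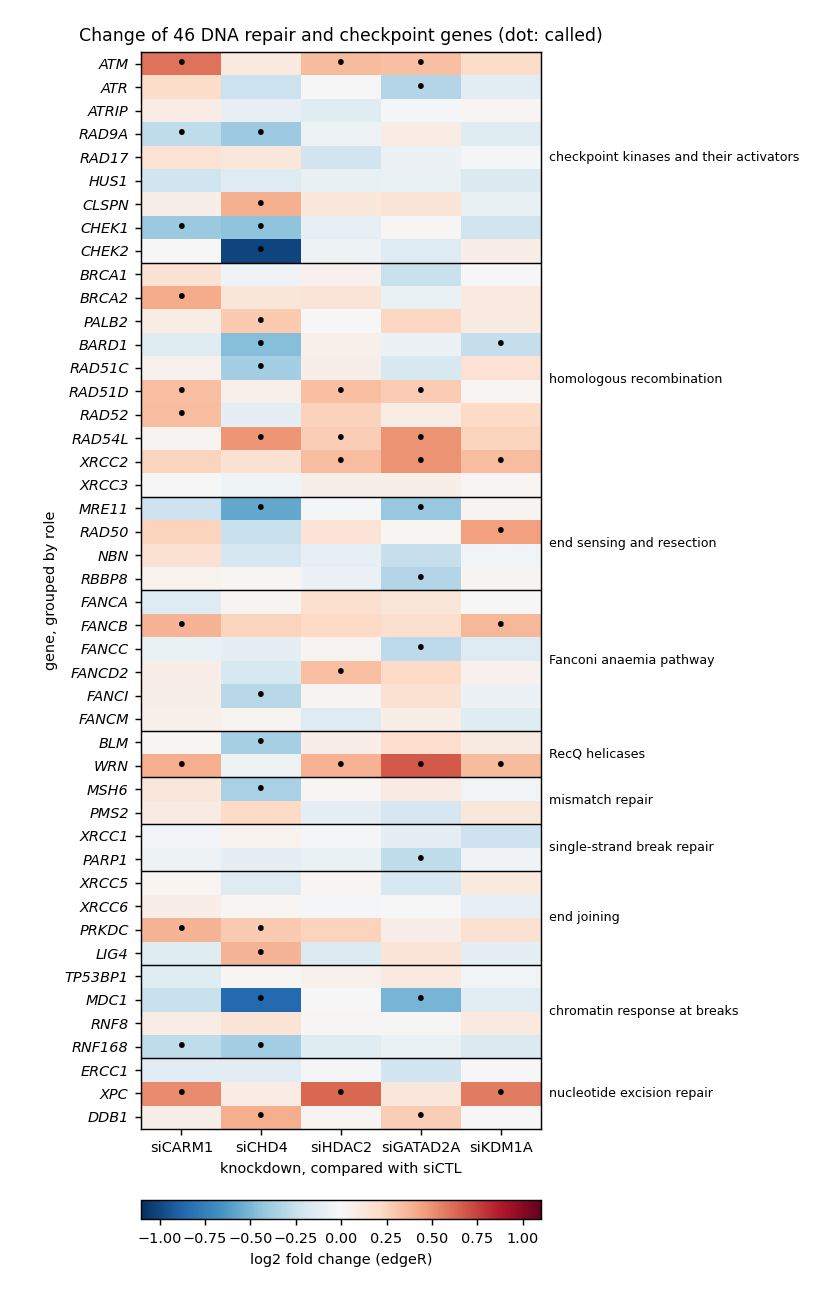
Log2 fold change of each of the 46 genes (rows, grouped by role) in each knockdown against siCTL (columns), from edgeR. Blue is lower, red is higher, and a dot marks a call. CHEK2 in siCHD4 has the deepest blue (−1.01) and WRN in siGATAD2A the deepest red (0.68).

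Among the 9 checkpoint kinases and their activators, siCHD4 had 3 genes called lower (all genes 24.8%) and 1 higher (24.0%), and siCARM1 had 2 lower (all genes 14.4%) and 1 higher (14.9%). CHEK2 (ENSG00000183765.23, chr22:29083731-29138410 in GRCh37, as for all genes that follow), the kinase activated by ATM, was at 58.4 and 64.3 CPM in the siCTL libraries and at 30.9 and 30.2 CPM in siCHD4. In the other knockdowns its libraries lay between 55.0 CPM in siGATAD2A and 67.3 CPM in siKDM1A. CHEK2 was therefore lower in both siCHD4 libraries than in any of the other 10, with a log2 fold change of −1.01 (SE 0.068, adjusted p = 3.0e-14) by edgeR. Compared directly, it was lower in siCHD4 than in siCARM1, siHDAC2, siGATAD2A and siKDM1A, by log2 differences of 1.01, 0.95, 0.86 and 1.08.

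CHEK1 (ENSG00000149554.13, chr11:125495058-125546150), the kinase activated by ATR, was at 67.4 and 64.4 CPM in siCTL, 46.5 and 53.2 CPM in siCARM1 and 49.7 and 47.4 CPM in siCHD4. It was at 63.6 and 60.7 CPM in siHDAC2, 66.0 and 67.1 CPM in siGATAD2A and 55.9 and 57.3 CPM in siKDM1A. The libraries of siCARM1 and siCHD4 lay below both of siCTL, with log2 fold changes of −0.41 (SE 0.062, adjusted p = 2.9e-06) and −0.44 (SE 0.063, adjusted p = 3.0e-07) by edgeR. In siKDM1A its log2 fold change of −0.22 passed the adjusted p but not the fold, and in siHDAC2 and siGATAD2A it was −0.09 and 0.01. CHEK1 was thus called lower in siCARM1 and siCHD4, and CHEK2 only in siCHD4. For CHEK1 the siHDAC2 and siKDM1A libraries also lay below both of siCTL, and it was called in siKDM1A after the GC correction (−0.27). The difference between siCHD4 and siCARM1 was called for CHEK2 and not for CHEK1.

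RAD9A (ENSG00000172613.8, chr11:67085342-67165881), a subunit of the clamp that activates ATR, was at 70.9 and 70.5 CPM in siCTL, 59.1 and 57.2 CPM in siCARM1 and 53.1 and 53.7 CPM in siCHD4. The groups did not overlap, and the log2 fold changes by edgeR were −0.28 (SE 0.060, adjusted p = 2.7e-04) and −0.40 (SE 0.061, adjusted p = 7.8e-07). The call in siCARM1 was lost without siCARM1 replicate 2 (−0.26), without regard to strand (−0.25) and after correction for GC content (−0.15). The other clamp subunit listed, HUS1, and the clamp loader RAD17 were not called in any knockdown, with log2 fold changes of −0.22 to −0.07 and −0.21 to 0.16. HUS1 was called lower in siCARM1 after the GC correction (−0.30) and without siCARM1 replicate 2 (−0.28).

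CLSPN (ENSG00000092853.14, chr1:36185819-36235579) encodes claspin, which brings CHEK1 to active ATR. It was at 112 and 111 CPM in siCTL and at 145 and 147 CPM in siCHD4, above each of the other 10 libraries, which reached 125 CPM at most. Its log2 fold change in siCHD4 was 0.39 (SE 0.046, adjusted p = 7.7e-09) by edgeR. In siCHD4, CHEK1 mRNA was thus lower and CLSPN mRNA higher than in siCTL.

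ATM (ENSG00000149311.19, chr11:108093771-108239829) was at 126 and 122 CPM in siCTL and 182 and 193 CPM in siCARM1. It was at 158 and 156 CPM in siHDAC2, 152 and 159 CPM in siGATAD2A, 139 and 146 CPM in siKDM1A and 135 and 133 CPM in siCHD4. Every knockdown library lay above both siCTL libraries, and those of siCARM1 were the highest. By edgeR the log2 fold change was 0.60 (SE 0.046, adjusted p = 3.6e-12) in siCARM1, 0.34 in siHDAC2 and 0.33 in siGATAD2A, all called, and 0.20 in siKDM1A and 0.11 in siCHD4, not called. ATM was higher in siCARM1 than in siCHD4 directly by 0.49 (SE 0.046, adjusted p = 6.8e-11).

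ATR (ENSG00000175054.16, chr3:142167849-142297575), the kinase of stalled forks, was at 112 and 109.5 CPM in siCTL and 91.0 and 85.6 CPM in siGATAD2A. It was at 123 and 132 CPM in siCARM1, 89.2 and 99.3 CPM in siCHD4, 110.0 and 111 CPM in siHDAC2 and 98.5 and 105 CPM in siKDM1A. Both siGATAD2A libraries lay below siCTL, with a log2 fold change of −0.33 (SE 0.055, adjusted p = 9.7e-06) by edgeR, and siHDAC2 overlapped siCTL. Its value in siCARM1, 0.21, and in siCHD4, −0.23, missed the fold, and the direct difference of siCHD4 from siCARM1 was −0.44 (SE 0.054, adjusted p = 2.3e-08). ATRIP, which holds ATR at single-stranded DNA, had log2 fold changes of −0.13 to 0.08.

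**Figure D4:**
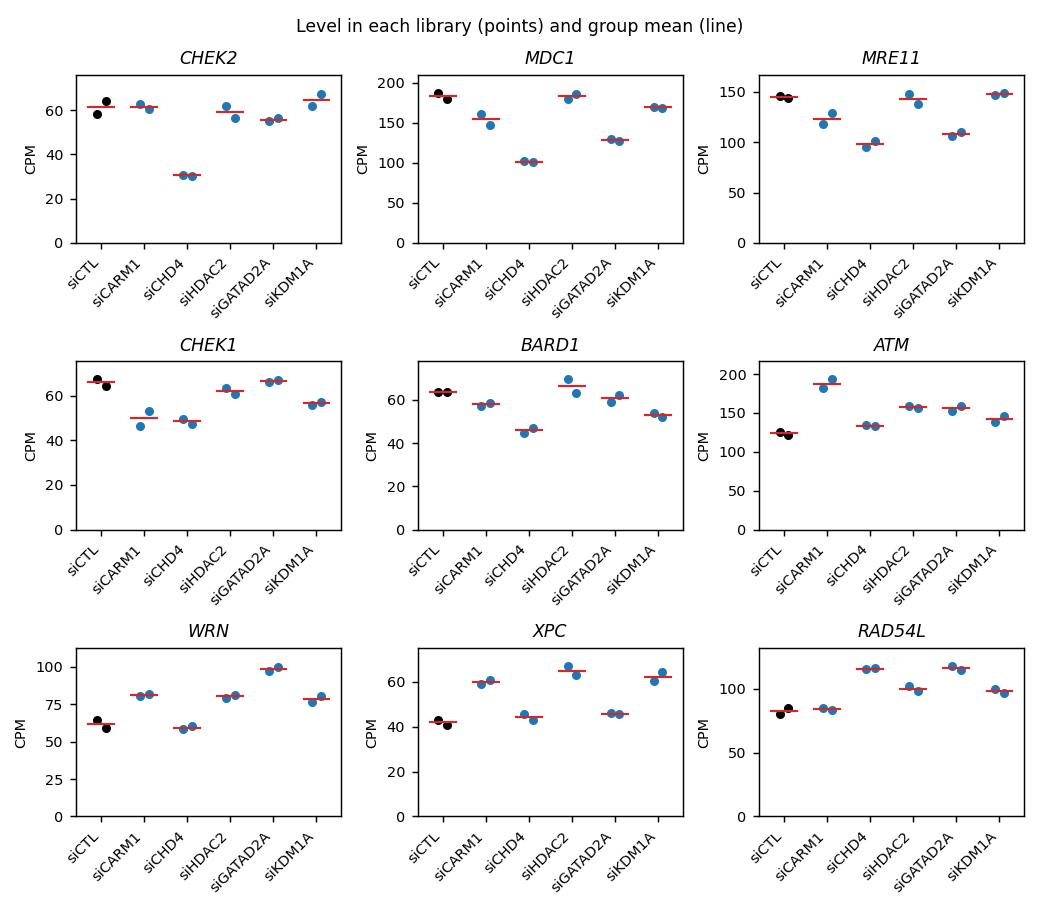
CPM of 9 genes in each library (points) and the mean of each group (line), with siCTL in black and axes that start at 0. CHEK2 falls to 30.9 and 30.2 CPM in siCHD4 alone, MDC1 is lowest in siCHD4 and next lowest in siGATAD2A, and WRN is highest in siGATAD2A at 96.9 and 100.1 CPM.

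The 4 genes of the chromatin response at breaks held the next largest decrease. MDC1 (ENSG00000137337.15, chr6:30667584-30685224), the scaffold that binds phosphorylated H2AX, was at 187 and 179.6 CPM in siCTL, 102 and 101 CPM in siCHD4 and 129.7 and 127 CPM in siGATAD2A. It was at 162 and 148 CPM in siCARM1, 181 and 187 CPM in siHDAC2 and 169.8 and 169 CPM in siKDM1A. The siCHD4 libraries were the lowest of the 12 and those of siGATAD2A the next, while siHDAC2 overlapped siCTL. The log2 fold change was −0.85 (SE 0.048, adjusted p = 2.8e-16) in siCHD4 and −0.51 (SE 0.047, adjusted p = 7.9e-11) in siGATAD2A by edgeR. In siCARM1 it was −0.24, short of the fold, and it was called without siCTL replicate 2 (−0.27) or without siCARM1 replicate 1 (−0.31).

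RNF168 (ENSG00000163961.4, chr3:196195654-196230639), a ubiquitin ligase that marks H2A near breaks, was at 74.0 and 69.1 CPM in siCTL, 59.0 and 59.1 CPM in siCARM1 and 52.5 and 57.8 CPM in siCHD4. Both groups lay below siCTL, with log2 fold changes of −0.28 (SE 0.060, adjusted p = 3.4e-04) and −0.37 (SE 0.061, adjusted p = 3.0e-06) by edgeR, and the call in siCARM1 was lost without siCTL replicate 1 (−0.23). RNF8, the ligase that acts before RNF168, had log2 fold changes of 0.01 to 0.15, and TP53BP1, which binds the marked chromatin and limits resection, had −0.14 to 0.11. Neither was called.

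Of the 4 genes of end sensing and resection, MRE11 (ENSG00000020922.13, chr11:94148736-94227051) was called lower in 2 knockdowns. This nuclease was at 146 and 144 CPM in siCTL, 95.2 and 101 CPM in siCHD4 and 107 and 110.3 CPM in siGATAD2A. It was at 118 and 129 CPM in siCARM1, 148 and 138 CPM in siHDAC2 and 147 and 149 CPM in siKDM1A. The siCHD4 libraries were lowest and siHDAC2 overlapped siCTL, with log2 fold changes of −0.56 (SE 0.051, adjusted p = 3.8e-11) in siCHD4 and −0.42 (SE 0.051, adjusted p = 3.5e-08) in siGATAD2A by edgeR. In siCARM1 it was −0.23, short of the fold, and it was called after the GC correction (−0.30) and without siCARM1 replicate 2 (−0.29).

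RAD50, the coiled-coil partner of MRE11, was at 8.09 and 7.13 CPM in siCTL and 9.27 and 11.4 CPM in siKDM1A. The siKDM1A libraries lay above siCTL but far apart, with a log2 fold change of 0.45 (SE 0.138, adjusted p = 0.00877) by edgeR. The call was lost without siCTL replicate 2 (0.36, adjusted p = 0.119) and without siKDM1A replicate 2 (0.29, adjusted p = 0.191), and the values cover only the exons it does not share. NBN, which completes that complex, was not called, with −0.25 in siGATAD2A as its largest log2 fold change. RBBP8, which encodes the resection factor CtIP, was called lower in siGATAD2A only, from 36.0 and 33.1 CPM in siCTL to 27.6 and 27.5 CPM (log2 fold change −0.32 (SE 0.085, adjusted p = 0.00188) by edgeR).

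The 10 genes of homologous recombination had 3 calls in each of siCARM1, siHDAC2 and siGATAD2A, each of them higher (all genes 14.9%, 10.6% and 15.7%), while siCHD4 had 2 lower and 2 higher and siKDM1A 1 of each (all genes called in siCHD4 24.8% lower and 24.0% higher, and in siKDM1A 11.4% and 14.2%). RAD54L (ENSG00000085999.13, chr1:46712133-46744152), a motor protein that acts in strand pairing, was at 80.1 and 85.1 CPM in siCTL, 115 and 116 CPM in siCHD4 and 118 and 115 CPM in siGATAD2A. It was at 102 and 98.0 CPM in siHDAC2, 99.5 and 96.6 CPM in siKDM1A and 85.4 and 83.7 CPM in siCARM1. Only siCARM1 overlapped siCTL. The log2 fold changes by edgeR were 0.48 (SE 0.050, adjusted p = 5.3e-10) in siCHD4 and 0.50 (SE 0.050, adjusted p = 6.6e-10) in siGATAD2A. The call in siHDAC2 (0.27 (SE 0.051, adjusted p = 7.8e-05) by edgeR) was lost without siCTL replicate 1 (0.23), without siHDAC2 replicate 1 (0.24), without regard to strand (0.22) and with the wider gene filter (0.25).

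XRCC2 (ENSG00000196584.3, chr7:152341861-152373278), which acts in strand exchange, was at 45.3 and 42.2 CPM in siCTL and 60.1 and 63.0 CPM in siGATAD2A. It was at 55.5 and 54.9 CPM in siHDAC2, 54.1 and 56.4 CPM in siKDM1A, 51.3 and 52.3 CPM in siCARM1 and 48.5 and 49.6 CPM in siCHD4, all above siCTL. Its log2 fold change was 0.49 (SE 0.060, adjusted p = 3.7e-08) in siGATAD2A by edgeR, 0.34 in both siHDAC2 and siKDM1A, called in each, and 0.25 in siCARM1 and 0.17 in siCHD4, not called. It was called in siCHD4 after the GC correction (0.29) and in siCARM1 without siCTL replicate 1 (0.29). Its partner RAD51D was called higher in siCARM1 (0.33), siHDAC2 (0.33) and siGATAD2A (0.28), with siCTL at 30.6 and 30.1 CPM and the knockdown libraries of these groups between 36.7 and 38.2 CPM. The siGATAD2A call of RAD51D was lost without siCTL replicate 2 (0.26) and under 3 other settings (0.25 to 0.26), all just short of the fold. RAD51C, which acts in the same step, was called lower in siCHD4, from 59.6 and 58.1 CPM to 45.7 and 45.1 CPM (log2 fold change −0.37 (SE 0.061, adjusted p = 2.9e-06) by edgeR). XRCC3, a partner of RAD51C, had log2 fold changes of −0.05 to 0.06 and overlapped siCTL in every knockdown. Its exons lie opposite those of KLC1 over 76.7% of their length.

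BARD1 (ENSG00000138376.11, chr2:215590370-215674407), the partner of BRCA1 in a ubiquitin ligase, was at 63.3 and 63.7 CPM in siCTL, 44.5 and 47.1 CPM in siCHD4 and 53.8 and 51.9 CPM in siKDM1A. Both knockdowns lay below siCTL, by −0.47 (SE 0.061, adjusted p = 5.3e-08) and −0.27 (SE 0.060, adjusted p = 6.0e-04) on the log2 scale by edgeR. The siKDM1A call, the single lower one there, was lost without siKDM1A replicate 2 (−0.24) and with an FPKM minimum of 1 (−0.26). BRCA1 itself, at 164 and 160.4 CPM in siCTL, was not called, its lowest log2 fold change being −0.24 (siGATAD2A) and its highest 0.16 (siCARM1).

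BRCA2 (ENSG00000139618.16, chr13:32889223-32974405), a mediator of strand exchange, was at 75.6 and 72.1 CPM in siCTL and 95.3 and 100.4 CPM in siCARM1. It was at 81.8 and 80.2 CPM in siCHD4, 85.9 and 77.7 CPM in siHDAC2, 69.6 and 70.5 CPM in siGATAD2A and 74.5 and 84.1 CPM in siKDM1A. The siCARM1 libraries were the highest, with a log2 fold change of 0.41 (SE 0.059, adjusted p = 1.2e-06) by edgeR, and siKDM1A overlapped siCTL. In siCHD4 the value was 0.13, and 0.31 after the GC correction, when it was called. PALB2, which links BRCA1 and BRCA2, was called higher in siCHD4 (0.29), a call lost without siCTL replicate 2 (0.19) or without siCHD4 replicate 1 (0.25). RAD52, an annealing protein, was called higher in siCARM1 (0.34 (SE 0.074, adjusted p = 3.4e-04) by edgeR), from 31.0 and 31.6 CPM to 37.8 and 41.6 CPM.

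Of the 6 Fanconi anaemia genes, 4 were called in at least 1 knockdown (all genes 72.9%). FANCD2, which is ubiquitinated together with FANCI at crosslinks, was called higher in siHDAC2, from 83.8 and 84.1 CPM to 106 and 105 CPM (log2 fold change 0.33 (SE 0.049, adjusted p = 3.2e-06) by edgeR), and was at 74.4 and 74.8 CPM in siCHD4 (−0.17, not called). The difference of siHDAC2 from siCHD4 was 0.50 (SE 0.048, adjusted p = 1.5e-10). FANCI was called lower in siCHD4 (−0.30), and the call was lost after correction for GC content (−0.23). Of the core complex, FANCC was called lower in siGATAD2A (−0.28), lost without siCTL replicate 2 (−0.23), and FANCA, at 209 and 221 CPM in siCTL, was not called (−0.14 to 0.17). FANCM, which carries the core complex to DNA, had log2 fold changes of −0.14 to 0.07.

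FANCB, a core complex gene on chromosome X (ENSG00000181544.15, chrX:14708510-14891377), was at 12.2 and 9.75 CPM in siCTL, 13.8 and 14.6 CPM in siCARM1 and 13.7 and 14.5 CPM in siKDM1A. Both knockdowns lay above siCTL, whose libraries were far apart, with log2 fold changes of 0.37 (SE 0.118, adjusted p = 0.00998) and 0.37 (SE 0.119, adjusted p = 0.013) by edgeR. Without siCTL replicate 2 these were 0.21 and 0.20, without replicate 2 of the knockdown itself 0.33 and 0.32, and neither was called in any of these 4 fits. In siCHD4 FANCB was at 0.25 and not called, but was called after the GC correction (0.40), without siCTL replicate 1 (0.41) and without siCHD4 replicate 1 (0.36).

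The 2 RecQ helicases differed in their pattern. WRN (ENSG00000165392.11, chr8:30891304-31033654), the helicase and exonuclease lost in Werner syndrome, was at 64.6 and 58.9 CPM in siCTL and 96.9 and 100.1 CPM in siGATAD2A. It was at 80.3 and 82.1 CPM in siCARM1, 79.3 and 81.5 CPM in siHDAC2, 76.5 and 80.6 CPM in siKDM1A and 58.3 and 60.4 CPM in siCHD4. All groups but siCHD4 lay above siCTL, and siCHD4 overlapped it. By edgeR the log2 fold change was 0.68 (SE 0.055, adjusted p = 6.9e-12) in siGATAD2A, 0.40 in siCARM1, 0.38 in siHDAC2 and 0.35 in siKDM1A, all called, and −0.05 in siCHD4.

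BLM, the helicase of Bloom syndrome, was called in siCHD4 alone and in the other direction, from 84.4 and 75.4 CPM in siCTL to 60.1 and 63.8 CPM (log2 fold change −0.36 (SE 0.062, adjusted p = 6.2e-06) by edgeR). Both siCHD4 libraries lay below siCTL. In direct comparison with siCHD4, both helicases were higher in each of the other 4 knockdowns, by 0.40 to 0.73 for WRN and 0.39 to 0.55 for BLM on the log2 scale.

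In nucleotide excision repair, XPC (ENSG00000154767.15, chr3:14186647-14220121), which recognizes distorted DNA, was at 43.2 and 40.8 CPM in siCTL. It was at 66.9 and 63.2 CPM in siHDAC2, 60.6 and 64.3 CPM in siKDM1A and 59.1 and 61.1 CPM in siCARM1, and at 46.2 and 45.5 CPM in siGATAD2A and 45.5 and 43.2 CPM in siCHD4. The former 3 groups lay above all other libraries. The log2 fold change was 0.63 (SE 0.062, adjusted p = 1.7e-09) in siHDAC2, 0.57 (SE 0.062, adjusted p = 6.0e-09) in siKDM1A and 0.52 (SE 0.062, adjusted p = 3.8e-08) in siCARM1 by edgeR. It was 0.13 in siGATAD2A and 0.08 in siCHD4, and each of the former 3 differed directly from both of these, by 0.39 to 0.55.

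DDB1 (ENSG00000167986.14, chr11:61066923-61110068), an adaptor of a ubiquitin ligase that acts on damaged DNA among other targets, was called in the remaining pair, siCHD4 and siGATAD2A. It was at 873 and 919 CPM in siCTL, 1185 and 1173 CPM in siCHD4 and 1081 and 1085 CPM in siGATAD2A, and at 882 to 948 CPM in the other 6 libraries. Its log2 fold change was 0.40 (SE 0.035, adjusted p = 1.4e-11) in siCHD4 by edgeR. The value in siGATAD2A, 0.27, fell short of the fold without siCTL replicate 1 (0.24) and under 3 other settings (0.24 to 0.26). The nuclease subunit ERCC1 was not called (−0.21 to 0.00). Its value in siGATAD2A, −0.21, became −0.37 on counts without regard to strand and −0.27 without siGATAD2A replicate 1, and it was called lower in both.

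Of the 4 end joining genes, PRKDC and LIG4 were called in at least 1 knockdown (all genes 72.9%). PRKDC, the catalytic subunit of the DNA-dependent protein kinase, was at 1292 and 1282 CPM in siCTL, 1636 and 1695 CPM in siCARM1 and 1568 and 1570 CPM in siCHD4, and both groups lay above siCTL. Its log2 fold change was 0.37 (SE 0.033, adjusted p = 6.2e-11) and 0.29 (SE 0.033, adjusted p = 4.6e-09) by edgeR, and 0.24, 0.17 and 0.07 in siHDAC2, siKDM1A and siGATAD2A, not called. LIG4, the ligase of this pathway, was called higher in siCHD4 (0.37), from 18.1 ± 1.29 CPM (SD, n = 2) in siCTL to 23.4 ± 2.25 CPM (SD, n = 2), a call lost without siCHD4 replicate 2 (0.26, adjusted p = 0.0697). XRCC5 had log2 fold changes of −0.18 to 0.11 and XRCC6 of −0.09 to 0.07, and neither was called.

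In mismatch repair, MSH6, which helps to find mispaired bases, was called lower in siCHD4, from 278 and 247 CPM in siCTL to 210.4 and 199.9 CPM (log2 fold change −0.36 (SE 0.046, adjusted p = 6.3e-08) by edgeR), below every other library. PMS2, which acts after mismatch recognition, was not called against siCTL, with 0.22 in siCHD4 and −0.19 in siGATAD2A. In single-strand break repair, PARP1 was called lower in siGATAD2A, from 628 and 622 CPM to 527 and 504 CPM (−0.28), which fell short of the fold without siGATAD2A replicate 2 (−0.25). The scaffold XRCC1 was not called (−0.23 to 0.04).

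Another 74 genes of the same pathways were listed, of which 72 were tested. In siCHD4, 25 of the 72 (34.7%) were called lower, beside 24.8% of all genes, and 4 (5.56%) higher, beside 24.0%. In siGATAD2A 15 were lower (20.8%, all genes 18.2%) and 7 higher (9.72%, all genes 15.7%), and in siCARM1 12 were lower (16.7%, all genes 14.4%) and 9 higher (12.5%, all genes 14.9%). In siKDM1A 6 were lower (8.33%, all genes 11.4%) and 9 higher (12.5%, all genes 14.2%), and in siHDAC2 2 were lower (2.78%, all genes 8.94%) and 5 higher (6.94%, all genes 10.6%). Their median log2 fold change was −0.13 in siCHD4 and between −0.04 and 0.02 in the other knockdowns. The 3 largest changes among these calls were those of DDB2, FANCG and SHLD1. DDB2, which pairs with DDB1 to find ultraviolet damage, was at 148 and 150.1 CPM in siCTL and 60.3 and 61.1 CPM in siCHD4, and its log2 fold change of −1.30 stood opposite the rise of DDB1. DDB2 was also called lower in siGATAD2A (−0.56), siCARM1 (−0.48) and siKDM1A (−0.27). FANCG (log2 fold change −1.22 in siCHD4) rests on 32 to 77 counts per library. SHLD1 of the shieldin complex was at 5.80 and 6.99 CPM in siCTL and 2.78 and 3.58 CPM in siCARM1 (log2 fold change −1.03).

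A list of 16 replication genes expressed in S phase was measured beside the repair genes. In siCHD4, 9 of the 16 (56.2%) were called lower, beside 24.8% of all genes, with a median log2 fold change of −0.30. In siKDM1A, 3 were called lower (all genes 11.4%) and 1 higher (14.2%), and in siCARM1 1 was lower (all genes 14.4%) and 3 higher (14.9%). In siHDAC2 3 were higher (all genes 10.6%), and in siGATAD2A 2 (all genes 15.7%). Their summed level was 4692 and 4787 CPM in the siCTL libraries, 3809 and 3782 CPM in siCHD4, and 4497 to 5076 CPM in the other 8 libraries. The part of this decrease in the repair genes called in siCHD4 was not tested, and in these bulk samples fewer cells in S phase and less RNA per cell cannot be told apart. From flow cytometry of HEK293 cells, the paper reports more cells in G1 after knockdown of CARM1, CHD4, HDAC2, GATAD2A or KDM1A. The part of that shift in the values here was not tested.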

How the data were processed

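RNA was sequenced in 12 libraries of HEK293T cells, 2 for each of siCTL, siCARM1, siCHD4, siHDAC2, siGATAD2A and siKDM1A, grouped by their titles. As deposited, the values are unnormalized counts of read pairs by Ensembl gene in 3 strand settings, and the processing notes name STAR 2.7.10, CASAVA 1.4 and hg19. The labels name 2 sequencing providers and not which library went to which, so a provider and a group cannot be told apart. The methods of the paper name HEK293 cells, TopHat and HOMER, and the annotation behind the counts is not given in the sources used here. STAR's gene counts leave out pairs with several locations or on more than 1 gene. Counts of the reverse strand were used here, since the opposite strand held 7.93% to 8.40% as many. Identifiers were matched to GENCODE release 44 on GRCh37 (58662 of 60660), and those unmatched held 1.75% to 2.61% of the counts. FPKM, CPM and fold changes were computed here. FPKM divides by the union of all annotated exons, which lowers it for genes with retained-intron transcripts.

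Coding genes with an FPKM above 0.5 in the mean of a group (12830) were tested by edgeR 4.0.16 (R 4.3.3) with TMM factors (0.968 to 1.01), a model of 6 group means, and a quasi-likelihood F test. The 46 genes, the role, pathway and replication lists and the markers were chosen with earlier results of these data known. With 2 libraries a side, no exact permutation test can reach a p under 0.05. The edgeR p-values rest on a spread shared over genes. Values per library are named for the 3 genes called lower and the 3 higher with the largest fold change in each knockdown, and of other pathway genes the 3 with the largest change are named. Further repair genes given with values are members of the list, except LIG1, which was named after its values were seen. Alternatives were DESeq2 1.42.0, its size factors, the replicate number as a block, fits of only the groups compared, unstranded counts, 3 filters, other fold minimums, a GC correction (loess, span 0.3) and each library left out. The analysis was tested on simulated data. Promoter letters were searched in RefSeq windows. PECAM1 of the marker list and 2 pathway genes under the FPKM minimum were not used here.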

Additional observations from a re-analysis of the deposited data

Results flagged for a closer look

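Of the direct comparisons between knockdowns, which share no siCTL library, 10 differences in 5 of the 46 genes were called at a fold of at least 1.5. The share of all genes with such a direct difference was not counted, so whether 5 of 46 is many or few was not tested. At a fold of 1.2, 36 of the 46 genes were called in at least 1 of the 10 pairs (all genes 80.0%). In each pair with siCHD4, 44.7% to 48.8% of all genes were called at a fold of 1.2. Against siCTL, which is a different comparison, 5 of the 46 genes reached a fold of 1.5 in at least 1 knockdown (all genes 31.6%). The widest direct difference of each gene is given here. The pairs of different genes use the same libraries. CHEK2 was higher in siKDM1A than in siCHD4 by 1.08 on the log2 scale (SE 0.067, adjusted p = 4.5e-15 by edgeR). MDC1 was higher in siHDAC2 than in siCHD4 by 0.857 (SE 0.048, adjusted p = 2.5e-16 by edgeR). WRN was higher in siGATAD2A than in siCHD4 by 0.730 (SE 0.055, adjusted p = 4.5e-13 by edgeR). MRE11 was higher in siKDM1A than in siCHD4 by 0.594 (SE 0.051, adjusted p = 9.7e-12 by edgeR). RAD50 was higher in siKDM1A than in siCHD4 by 0.694 (SE 0.139, adjusted p = 6.1e-05 by edgeR), on 141 to 273 counts per library and on the exons it does not share. siCHD4 is the lower group in each of the 5.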

How the results depend on the processing

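Of the 53 calls of repair genes against siCTL, 39 held under every alternative other than a changed fold minimum and 14 were lost in at least 1. None changed direction. DESeq2, its size factors, the fit of only the groups compared and the filter of at least 1 count each kept all 53. With no fold minimum, the counts lower and higher were 8 and 13 in siCARM1 (all genes 23.1% and 23.6%) and 12 and 12 in siGATAD2A (26.0% and 25.5%). In siKDM1A they were 7 and 11 (20.4% and 21.9%), in siCHD4 16 and 11 (32.5% and 33.2%) and in siHDAC2 1 and 10 (17.5% and 17.8%). With a fold of 1.5 the counts lower and higher were 0 and 1 in siCARM1, 2 and 0 in siCHD4, 0 and 1 in siGATAD2A and 0 and 0 in siKDM1A. At that fold 1 gene was higher in siHDAC2, and 5 genes were called in the direct pairs. Shares of all genes at that fold were not counted by knockdown (31.6% in at least 1 knockdown against siCTL). The count lower in siKDM1A was 0 with an FPKM minimum of 1 (BARD1 lost) and 2 after the GC correction (CHEK1 gained). Leaving out each library in turn gave 2 to 4 lower and 7 to 9 higher in siCARM1, 11 to 12 and 5 to 7 in siCHD4, 0 to 1 and 6 to 8 in siHDAC2, 6 to 7 and 5 to 7 in siGATAD2A, and 1 and 4 to 5 in siKDM1A, with 39 to 42 genes in the test of 6 groups and 33 to 38 in the direct pairs. The 1 lower call in siHDAC2 came without siCTL replicate 2 or without siHDAC2 replicate 2 (RAD17). Of 30 losses over these fits, 22 fell under the fold alone, 4 missed the adjusted p alone (RAD50, and FANCB without replicate 2 of the knockdown) and 4 missed both (FANCB and PALB2 without siCTL replicate 2, and LIG4). Of the 177 gene and knockdown pairs not called, 18 were called in at least 1 alternative, 9 of them only with a library left out. The others were ERCC1 in siGATAD2A without regard to strand (−0.37), BRCA1 (−0.27) and NBN (−0.28) there with the filter on every biotype, and after the GC correction HUS1 and MRE11 in siCARM1 (both −0.30), BRCA2 (0.31), FANCB (0.40) and XRCC2 (0.29) in siCHD4 and CHEK1 in siKDM1A (−0.27). Those called only with a library left out were MDC1 and XRCC2 in siCARM1, ATR in siCHD4 (−0.32 without its replicate 2), BLM (0.27) and PALB2 (0.32) in siGATAD2A without siCTL replicate 1, RAD17 and RAD52 (0.27 and 0.31) in siHDAC2 without replicate 2 of siCTL or siHDAC2, RAD54L in siKDM1A (0.29 and 0.27) without replicate 2 of siCTL or siKDM1A, and XRCC1 there (−0.30 without siKDM1A replicate 2). NBN in siGATAD2A was also called without siCTL replicate 2 (−0.30) or siGATAD2A replicate 2 (−0.35). A replicate block kept 53 of 53 calls and moved no value by more than 0.0036 on the log2 scale. Deviations of same-numbered libraries correlated at −0.206 to 0.195 over 15 pairs of groups, 2 of them over 0.1. The correlations were of both signs, so no pairing by number ran through all groups. A pairing or batch shared by only some groups was not tested. The test of the 6 groups together has no fit of only the groups compared. Depth limits the genes with few counts, with an SE of 0.138 to 0.149 on the log2 scale for RAD50 beside 0.033 for PRKDC. The cause of the lost calls was not tested.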

Other observations

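The other genes of the repair pathways are given here by list, as counts called against siCTL by edgeR. Genes tested were 20 for excision and base repair, 16 for recombination and 11 for break response. The checkpoint and Fanconi anaemia lists had 8 each, end joining 7 and mismatch repair 2. No list was tested as a set. In siCHD4 (all genes 24.8% lower and 24.0% higher), 8 of 20 tested excision and base repair genes were lower and 3 higher. Of 7 end joining genes 4 were lower, as were 3 of 8 Fanconi anaemia genes and 4 of 11 break response genes. Lower too were 2 of 8 checkpoint genes and 1 of 2 mismatch repair genes. Of 16 recombination genes, 3 were lower and 1 higher. The DNA ligase LIG1, named after its values were seen, was at 208 and 211 CPM in siCTL and 105.3 and 104.9 CPM in siCHD4, a log2 fold change of −0.998 (SE 0.047, adjusted p = 3.1e-18 by edgeR). In siGATAD2A (all genes 18.2% lower and 15.7% higher), 7 excision and base repair genes were lower and 2 higher, and 3 checkpoint genes were lower. Break response genes had 2 lower and 3 higher, recombination genes 2 of each, and 1 end joining gene was lower.

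In siCARM1 (all genes 14.4% lower and 14.9% higher), excision and base repair had 3 lower and 1 higher and break response 3 and 1. Recombination had 2 and 3 and Fanconi anaemia 2 and 1, with 2 end joining genes lower, 2 checkpoint genes higher and 1 mismatch repair gene higher. In siKDM1A (all genes 11.4% lower and 14.2% higher), break response had 1 lower and 3 higher and excision and base repair 3 and 2. Recombination and Fanconi anaemia had 1 of each, with 1 checkpoint and 1 end joining gene higher. In siHDAC2 (all genes 8.94% lower and 10.6% higher), excision and base repair had 1 of each and 1 end joining gene was lower. There, 2 recombination, 1 Fanconi anaemia and 1 break response gene were higher. These comparisons use the same siCTL libraries.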
